A study of Mus musculus with 4 samples.

Results

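The CD3 chain genes are Cd3d, Cd3e, Cd3g and Cd247, which encode the delta, epsilon, gamma and zeta chains of the T cell receptor complex. They were taken by name, as 4 of the 21938 protein-coding genes of the GENCODE mouse annotation (release M21) on build GRCm38 (mm10). Each locus was the gene body plus 25 kb on either side. DNase-seq sequences the ends left where the enzyme DNase I cuts open chromatin. It had been carried out on CD8-positive T cells described as naive, resting and alpha-beta. The cells were primary cells of virgin female B6CASTF1/J mice aged 2 months, an F1 cross of a C57BL/6 and a CAST strain. The 4 libraries formed a single group, labelled biological replicates 1 to 4, so comparisons were made between genes and sites within a library. Their biosamples differ but share a single donor identifier, and nothing in the labels ties each library to its own animal. P-values over libraries thus cover the spread among these libraries alone, which may be technical.

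The T cell receptor recognises peptide bound to MHC molecules but has almost no cytoplasmic part of its own. The CD3 chains carry the immunoreceptor tyrosine-based activation motifs (ITAMs) that Lck phosphorylates and Zap70 then binds. In each complex, CD3 epsilon pairs with CD3 delta and with CD3 gamma, and zeta forms a homodimer. Cd3g, Cd3d and Cd3e lie in a cluster on mouse chromosome 9, with Cd3g and Cd3d transcribed away from each other across a short shared upstream region, and Cd247 lies alone on chromosome 1. T cell enhancers of the human CD3D and CD3E genes were mapped by reporter assays to the 3′ side of those genes.

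Cd3g spanned 44969572 to 44980431 on the minus strand of chromosome 9, Cd3d 44981786 to 44987339 on the plus strand, and Cd3e 44998740 to 45009627 on the minus strand. Cd247 spanned 165788681 to 165877277 on the plus strand of chromosome 1. The RefSeq promoter table (build GRCm38.p6) held all 4 genes. The sequences from 250 bases before to 30 bases after each start are shown 5′ to 3′ on the gene's strand, because the 5′ ends of the genes carried unequal peaks. Capitals mark bases inside a deposited footprint, a short stretch protected from DNase I, called in at least 2 libraries. The letters are those of the reference strain, and the CAST alleles of the cells can differ from them.
Cd3d, chr9:44981536-44981815, plus strand: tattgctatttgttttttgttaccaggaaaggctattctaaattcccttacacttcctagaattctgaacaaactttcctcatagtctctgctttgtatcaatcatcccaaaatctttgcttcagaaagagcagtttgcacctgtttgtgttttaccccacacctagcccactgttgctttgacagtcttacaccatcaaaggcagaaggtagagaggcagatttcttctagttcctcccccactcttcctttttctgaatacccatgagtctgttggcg
Cd3e, chr9:45009582-45009861, minus strand: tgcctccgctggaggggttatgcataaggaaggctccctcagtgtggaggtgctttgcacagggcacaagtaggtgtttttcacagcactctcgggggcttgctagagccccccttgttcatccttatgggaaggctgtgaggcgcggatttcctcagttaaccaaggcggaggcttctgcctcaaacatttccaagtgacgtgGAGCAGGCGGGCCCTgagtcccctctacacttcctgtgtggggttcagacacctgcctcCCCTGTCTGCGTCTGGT
Cd3g, chr9:44980402-44980681, minus strand: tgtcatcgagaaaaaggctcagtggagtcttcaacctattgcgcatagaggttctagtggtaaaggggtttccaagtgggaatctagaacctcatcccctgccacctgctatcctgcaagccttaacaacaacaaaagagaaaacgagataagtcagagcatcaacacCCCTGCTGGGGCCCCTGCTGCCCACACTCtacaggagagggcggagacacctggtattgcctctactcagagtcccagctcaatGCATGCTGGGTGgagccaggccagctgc
Cd247, chr1:165788431-165788710, plus strand: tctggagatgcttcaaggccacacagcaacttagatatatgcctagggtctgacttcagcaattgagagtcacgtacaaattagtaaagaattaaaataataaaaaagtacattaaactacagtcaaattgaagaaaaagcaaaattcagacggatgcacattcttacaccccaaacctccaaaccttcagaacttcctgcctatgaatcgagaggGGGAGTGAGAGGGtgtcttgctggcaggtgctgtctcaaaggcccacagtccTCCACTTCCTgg
The Cd3d promoter had the lowest GC content, 41.4%, with 1 CG dinucleotide, and held no footprint called in 2 libraries. Cd247 had 43.2% GC and 3 CG, Cd3g 53.2% and 4 CG, and Cd3e 57.9% and 8 CG. Over the 32851 promoters of the table the medians were 52.5% GC and 6 CG. All 4 CD3 promoters held the E-box letters CAGGTG on one strand or the other, as did 19.1% of all promoters of the table, and 3 of 4 (Cd3d, Cd3e and Cd247) held the ETS letters GGAAGT, as did 22.3%. None of the 4 held the TATA letters TATAAA, which 13.1% of promoters held. A match of letters is a description and does not show that a factor binds there.

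The longer of both peak lists held 69413, 70552, 51121 and 20647 peaks in replicates 1 to 4, and their depths, read from the step between heights, were 109, 62.9, 91.5 and 24.3 M tags. Peaks of the 4 libraries that overlapped by at least 1 bp were merged to 86936 sites, of which 41228 were called in at least 3 libraries (consensus sites) and 17545 in all 4. A relative height is the deposited height of a peak over the median height of the same library at the sites called in all 4, and a site with no peak in a library counts as 0 there. The libraries labelled 3 and 4 stood apart from their label at Cd8a, the CD8 alpha chain, whose promoter was called at 0.498 and 0.366 in replicates 1 and 2 but not in replicates 3 and 4. Zbtb7b, a transcription factor of helper T cells, stood at 0.251, 0.358, 0.746 and 1.12 in replicates 1 to 4. Cd8b1 and Runx3 of the CD8 lineage were called in all 4 libraries, and Cd4 and Cd40lg in none. The 8 B cell markers had 6, 5, 7 and 5 promoters called in replicates 1 to 4, against 58.4%, 58.5%, 56.7% and 46.3% of all protein-coding genes. The summed relative heights of these markers were 1.64, 1.99, 3.59 and 4.3. What part these differences between libraries played in the results below was not tested. The start heights, the site counts and the height of distal against start sites are therefore also given for replicates 1 and 2 alone.

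All 4 CD3 chain genes had a start peak (the tallest peak no more than 1 kb from any annotated start) in replicates 1, 2 and 3, and Cd3d alone in replicate 4. Over all protein-coding genes, 58.4%, 58.5%, 56.7% and 46.3% had such a peak in replicates 1 to 4. A consensus site lay within 1 kb of a start at 4 of 4 CD3 chain genes, against 55.1% of all genes. A start peak in all 4 libraries was found at 1 of 4, against 46% of all genes.

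Cd3d had the tallest start peak of the members. Its relative heights were 2.04, 1.84, 1.47 and 1.12 in replicates 1, 2, 3 and 4 (mean 1.62 ± 0.407, SD, n = 4), and the deposited heights were 8.47, 15.4, 4.69 and 2.63. The mean exceeded that of 78.1% of all genes, and of 64% of the genes with any start peak. Cd3e, the chain shared by both CD3 heterodimers, had 0.64, 0.583, 0.653 and 0 (mean 0.469 ± 0.314). Cd3g had 0.611, 0.661, 0.485 and 0 (mean 0.439 ± 0.302). Cd247, which carries more ITAMs than the other chains, had 0.762, 0.49, 0.381 and 0 (mean 0.408 ± 0.316). These 3 genes lay between 0.381 and 0.762 in replicates 1 to 3 and had no call in replicate 4. Their means lay above those of 27.2%, 26.2% and 25.1% of genes with any start peak, in the order Cd3e, Cd3g and Cd247.

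Cd3d was higher than each of the other members in 4 of 4 libraries. The differences in relative height were 1.15 ± 0.249 against Cd3e, 1.18 ± 0.186 against Cd3g and 1.21 ± 0.125 against Cd247 (SD, n = 4). Each had an exact two-sided sign-flip permutation p of 0.125, the smallest that 4 libraries allow, and 0.25 after Benjamini-Hochberg adjustment over the 6 pairs. Cd3e, Cd3g and Cd247, next to each other in the order of heights, could not be ordered among themselves: their differences of 0.0298 to 0.0606 were smaller than the spread between libraries (exact permutation p = 0.75 for each of 3 pairs). In replicates 1 and 2 alone the means were 1.94 for Cd3d, 0.611 for Cd3e, 0.636 for Cd3g and 0.626 for Cd247.

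**Figure D1:**
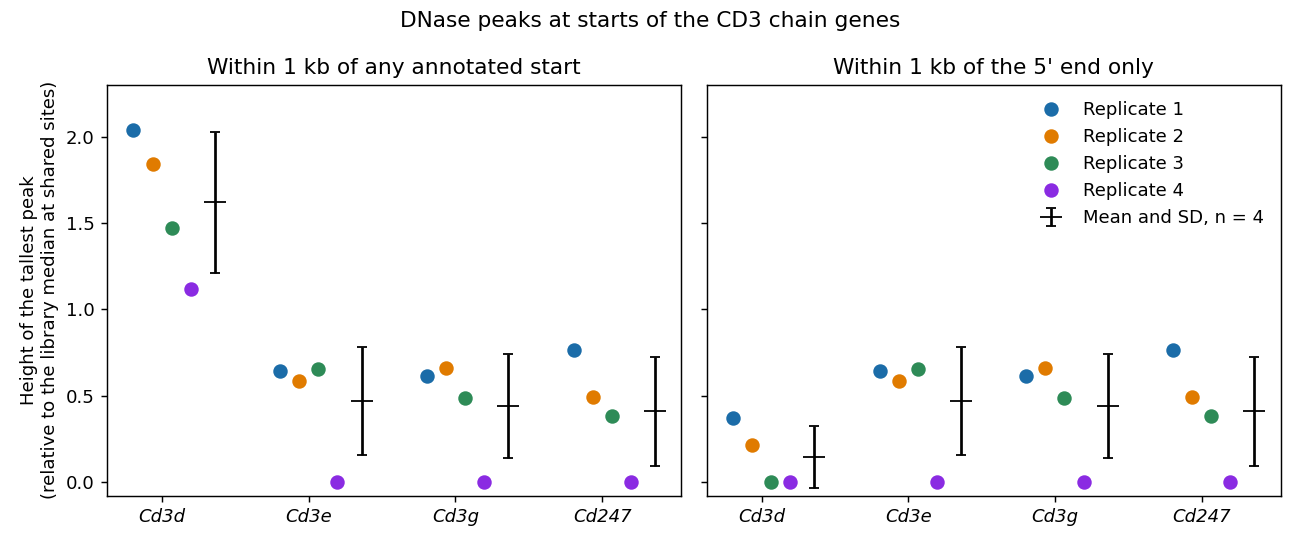
Relative height of the tallest peak (y axis) within 1 kb of any annotated start (left) or of the 5′ end only (right) of each CD3 chain gene, one point per library, with the mean and SD (n = 4). Cd3d lies at 1.12 to 2.04 on the left and at 0 to 0.369 on the right, while the other 3 genes have the same values in both panels.

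The tall Cd3d peak was not at the 5′ end of the gene. It lay at chr9:44986361-44986840, with its middle 4.81 kb downstream of the 5′ end, and all 480 of its bases fell in exon 5, inside the 3′ untranslated region (UTR) of the full-length transcript (44986342 to 44987339). It counted as a start peak because 2 shorter transcripts, Cd3d-202 and Cd3d-203, are annotated to start at 44985823 and 44985952. The site at the 5′ end, chr9:44981661-44981920, stood at a relative height of 0.369 in replicate 1 and 0.213 in replicate 2, and had no peak in replicates 3 and 4. A further site between them, chr9:44985601-44986240, over exons 3 and 4 and the introns around them, had 0.291, 0.229, 0.296 and 0.

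The 3′ site of Cd3d was higher than the 5′ end in 4 of 4 libraries, by 1.48 ± 0.25 (SD, n = 4; exact sign-flip permutation p = 0.125), and 5.54 to 8.63 times as high in the 2 libraries that called both. Among the 12087 genes with a consensus start site, the tallest was more than 1 kb from the 5′ end in 12.2%, and among the CD3 chain genes in 1 of 4. With the 5′ end only, Cd3d was the lowest member and differed from the mean of the other 3 by -0.293 (exact permutation p = 0.25). A consensus site then lay at 3 of 4 CD3 chain genes, against 50.7% of all genes, and a peak in all 4 libraries at 0 of 4, against 42.2%.

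The 3′ site of Cd3d held 12 merged footprints, of which 4 were called in at least 3 libraries. The footprint at 44986640 to 44986678 (39 bp) was called in all 4. Its central 30 bases are shown, on the plus strand, with the bases that match the ETS letters GGAAGT or CCGGAAG on the minus strand in capitals.
Cd3d 3′ footprint, chr9:44986645-44986674: atcataacaACTTCCGGgattttgctgcct
The RUNX letters TGTGGT matched at 44986676 to 44986681, across the end of the same footprint, and once more at 44986695 to 44986700, outside any footprint. In the central 200 bp of sites, TGTGGT was found in 9.61% of all promoter sites and 23.6% of all distal ones, GGAAGT in 20% and 20.8%, and CCGGAAG in 12.2% and 2.93%.

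The window over Cd3g, Cd3d and Cd3e (chr9:44944572-45034627, 90.1 kb) held 19 sites, of which 13 were consensus sites. Of those 13, 6 lay within 1 kb of a start of a CD3 chain gene, 1 at the start of the neighbour Ube4a, a ubiquitin chain elongation factor, and 6 were distal, away from starts of protein-coding genes. The Ube4a site and the 3′ site of Cd3d were called in all 4 libraries. The Ube4a site, chr9:44965481-44965720, stood at 5.32, 4.29, 4.23 and 3.56 (mean 4.35 ± 0.727, SD, n = 4) and was the tallest of the window in every library. The remaining Cd3e start sites were chr9:45008401-45008731 in intron 2, with 0.202, 0.164, 0.144 and 0, and chr9:45010561-45010780, centred 1.04 kb upstream, with 0.507, 0.526, 0.313 and 0.

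The tallest distal site of the cluster, chr9:44966921-44967080, lay in the intergenic stretch between the 3′ end of Cd3g and Ube4a. It was nearer to the Ube4a start site, chr9:44965481-44965720, than to the Cd3g 5′ end, 13.4 kb away. Which gene it acts on was not tested. Its relative heights were 1.35, 1.49, 0.811 and 0 in replicates 1 to 4, with a mean above 90.4% of the 23887 distal consensus sites of the genome. It was 1.67 to 2.25 times as high as the Cd3g 5′ end in the 3 libraries that called both (difference 0.474 ± 0.385, SD, n = 4; exact permutation p = 0.25). The site at chr9:45022901-45023080, 13.4 kb upstream of Cd3e, stood at 0.8, 0.79, 0.447 and 0. The other 4 distal sites were lower, with means of 0.193 to 0.282. They lay in intron 3 of Ube4a, 6.4 kb upstream of Cd3e, in the last exon of Cd3e and just beyond the Cd3e 3′ end. All 6 distal consensus sites of the cluster window were without a call in replicate 4. With starts counted to 2.5 kb, the cluster window held 5 distal sites.

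**Figure D2:**
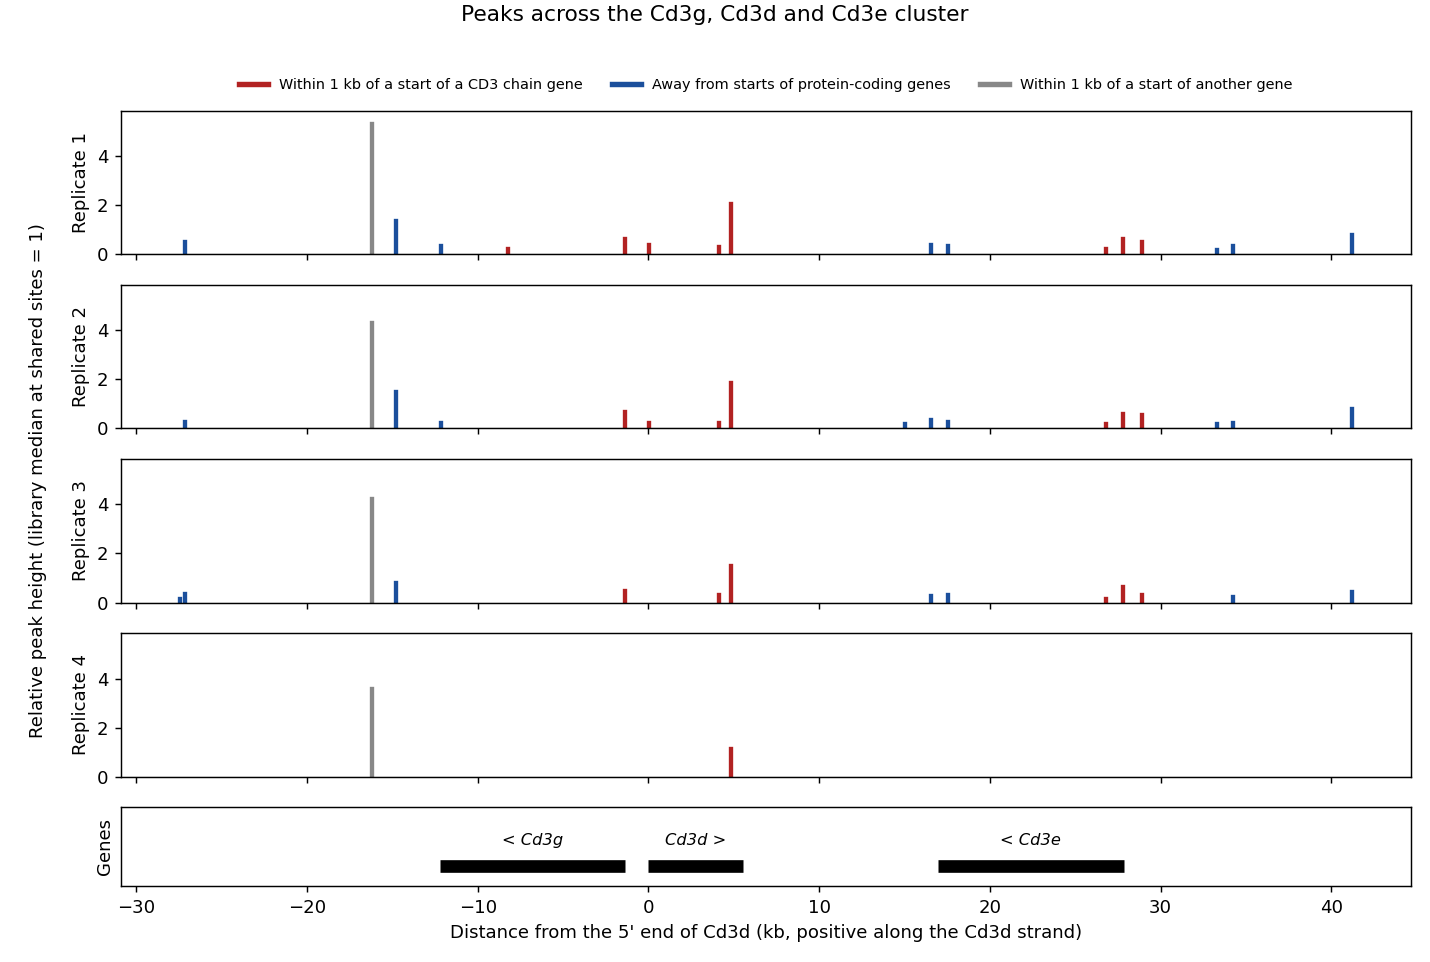
Relative peak height (y axis, same scale in all rows) along the chromosome 9 window in replicates 1 to 4, by distance in kb from the 5′ end of Cd3d (x axis), with the gene bodies below and their strand as an arrow. In replicate 4 the 2 peaks left are those at the Ube4a start and the Cd3d 3′ UTR, at 3.56 and 1.12.

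The Cd247 window (chr1:165763681-165902277, 139 kb) held 26 sites, of which 15 were consensus sites: 2 at starts of Cd247, 2 at starts of the neighbour Creg1 and 11 distal. The Creg1 site chr1:165763601-165763820 was called in all 4 libraries at 1.69, 1.83, 1.84 and 1.51 (mean 1.72 ± 0.156, SD, n = 4). Creg1 encodes a secreted glycoprotein. Inside Pou2f1, another neighbour, a peak of 0.1 within 1 kb of an internal annotated start was called in replicate 1 alone. The Cd247 5′ end site, chr1:165788601-165788809, and a wider site in intron 1 centred 0.699 kb downstream, chr1:165789061-165789700, were called in replicates 1, 2 and 3. The intron 1 site stood at 0.333, 0.194, 0.306 and 0.

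A group of 4 sites deep in intron 1 of Cd247 was called in all 4 libraries, including replicate 4, in which the 5′ end was not. The site 52.4 kb downstream of the 5′ end, chr1:165840881-165841185, stood at 0.409, 0.347, 0.395 and 0.614 in replicates 1 to 4. The site at 56.2 kb, chr1:165844521-165845240, had 0.478, 0.432, 0.512 and 0.667. The site at 56.9 kb, chr1:165845401-165845720, had 0.971, 0.79, 0.619 and 0.754, and the site at 65.2 kb, chr1:165853821-165854020, had 0.836, 0.878, 1.01 and 1.07. The sites at 52.4, 56.2 and 65.2 kb had their highest relative height in replicate 4, and the site at 56.9 kb in replicate 1. The group was picked by its calls, so a site too low for a peak in replicate 4 could not enter it. What this does to the replicate 4 heights was not tested.

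The sites at 65.2 and 56.9 kb were higher than the Cd247 5′ end in 4 of 4 libraries, by 0.54 ± 0.42 and 0.375 ± 0.256 (SD, n = 4, exact sign-flip permutation p = 0.125 for each). These means include replicate 4, where the 5′ end had no peak and counted as 0. In the 3 libraries that called both, the sites were 1.1 to 2.65 and 1.27 to 1.62 times as high as the 5′ end. The other pair of sites was higher than the 5′ end in 2 of 4 libraries (exact permutation p = 0.875 at 52.4 kb and 0.75 at 56.2 kb). The site at 65.2 kb had a mean of 0.949 ± 0.11, above 91.2% of distal consensus sites. Non-coding gene models (Gm32999 and Gm37856) start within 1 kb of the sites at 56.2 and 56.9 kb. The other 7 distal consensus sites of the window had means of 0.128 to 0.598, each with no call in replicate 4. The highest of these, chr1:165771661-165771880, 16.9 kb upstream in intron 3 of Creg1, had 0.802, 0.827, 0.763 and 0. It was 1.05 to 2 times as high as the Cd247 5′ end in the 3 libraries that called both. In the same 3 libraries the site 12.9 kb upstream was 1.11 to 1.3 times as high (exact permutation p = 0.25 for each). The p-values of sites against the 5′ end were not adjusted for the number of sites compared.

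**Figure D3:**
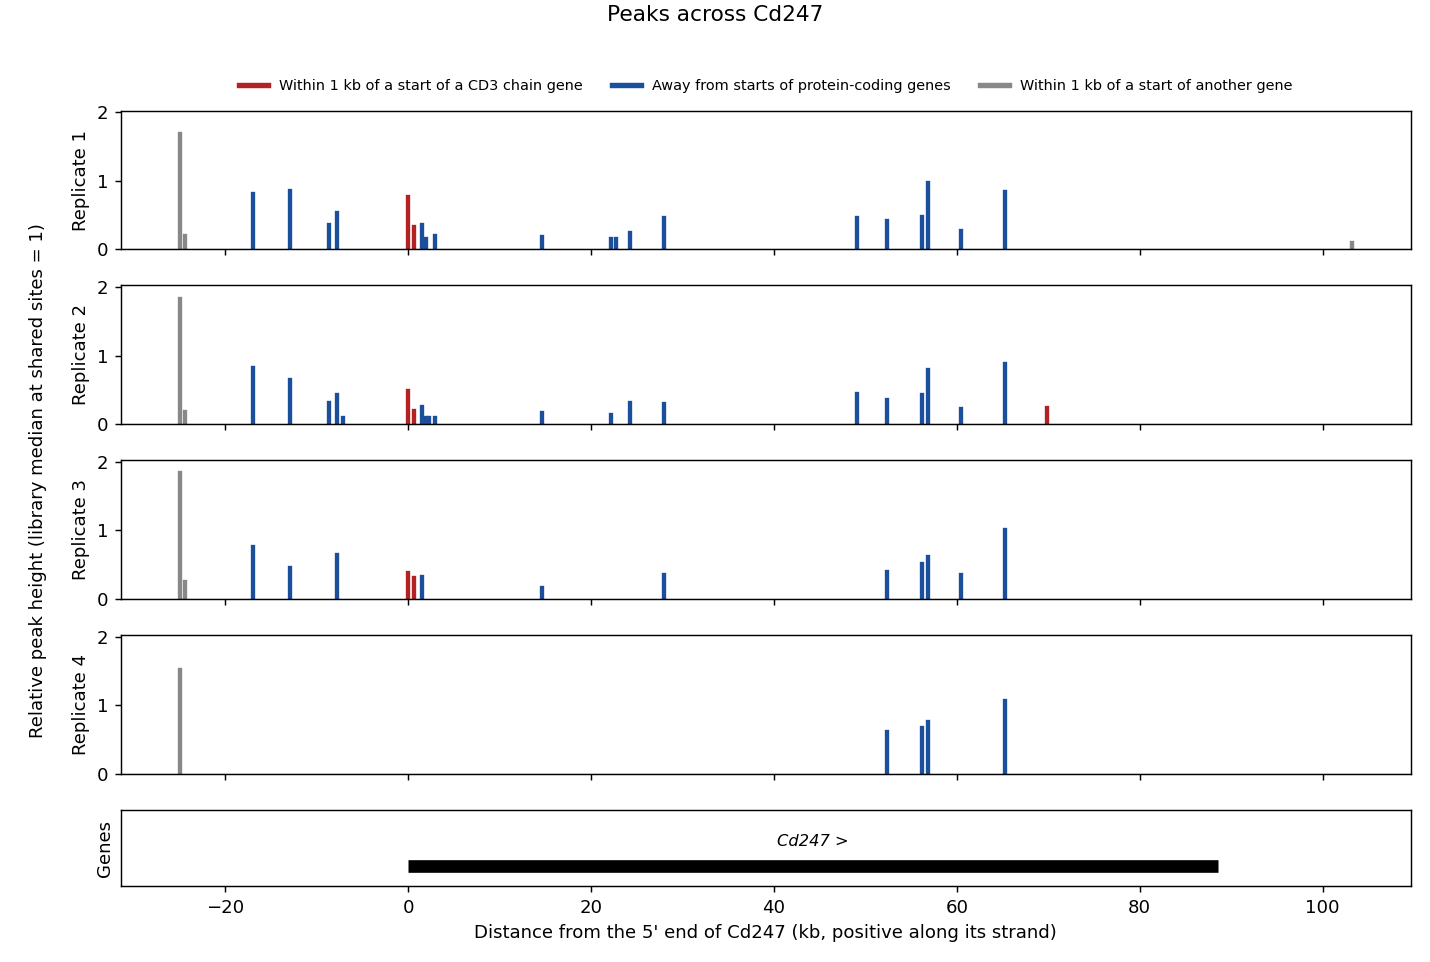
Relative peak height (y axis, same scale in all rows) along the chromosome 1 window in replicates 1 to 4, by distance in kb from the 5′ end of Cd247 (x axis), with the gene body below. The 5′ end peak at distance 0 is seen in replicates 1 to 3 at 0.762, 0.49 and 0.381, and the sites between 52.4 and 65.2 kb in all 4 libraries.

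The 3 tallest distal sites of both windows by mean, and the site upstream of Cd247, are shown with the bases in a footprint of at least 3 libraries in capitals.
Site beyond the 3′ end of Cd3g, chr9:44966921-44967080, plus strand: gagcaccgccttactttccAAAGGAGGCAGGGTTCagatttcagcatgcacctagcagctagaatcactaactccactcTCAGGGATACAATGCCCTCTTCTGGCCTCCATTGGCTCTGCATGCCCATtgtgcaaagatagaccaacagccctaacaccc
Site 65.2 kb into Cd247, chr1:165853821-165854020, plus strand: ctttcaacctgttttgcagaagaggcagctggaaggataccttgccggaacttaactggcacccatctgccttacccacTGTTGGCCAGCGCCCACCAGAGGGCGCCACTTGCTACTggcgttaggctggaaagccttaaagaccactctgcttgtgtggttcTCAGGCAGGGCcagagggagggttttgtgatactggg
Site 16.9 kb upstream of Cd247, chr1:165771661-165771880, plus strand: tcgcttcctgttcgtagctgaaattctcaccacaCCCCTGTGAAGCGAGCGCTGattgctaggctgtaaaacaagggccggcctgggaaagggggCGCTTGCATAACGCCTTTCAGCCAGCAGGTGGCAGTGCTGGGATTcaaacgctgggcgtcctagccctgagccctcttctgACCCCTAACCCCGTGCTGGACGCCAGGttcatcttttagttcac
Central 300 bases of the site 56.9 kb into Cd247, chr1:165845411-165845710, plus strand: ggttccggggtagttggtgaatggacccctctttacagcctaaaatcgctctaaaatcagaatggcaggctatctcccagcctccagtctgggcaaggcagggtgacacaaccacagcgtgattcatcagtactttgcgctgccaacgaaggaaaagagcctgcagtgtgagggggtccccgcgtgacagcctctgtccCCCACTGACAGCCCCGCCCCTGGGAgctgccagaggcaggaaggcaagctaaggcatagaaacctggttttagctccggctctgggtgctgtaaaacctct
The site 65.2 kb into Cd247 held a 38 bp footprint called in all 4 libraries (165853900 to 165853937), and this was the 1 footprint of the Cd247 window called in replicate 4. A CTCF form of 12 letters (CCA, any 2 letters, AG, any 2 letters, GGC), for the factor that shapes chromatin loops, matched inside that footprint. It also matched inside a footprint of 3 libraries at the site beyond Cd3g and at the site upstream of Cd247. This form was chosen after the sequences had been seen. It was found in 4 of the 17 distal consensus sites of both windows (23.5%), against 26.6% of all distal consensus sites, and in 0 of 8 start sites, against 5.47% of all promoter sites.

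Of the other letters searched, on both strands in the central 200 bp of the 17 distal sites, the AP-1 letters TGANTCA were found in 5, against 6.56% of all distal sites, and TGTGGT in 7, against 23.6%. GGAAGT was found in 1 and the GATA letters AGATAA in 0, against 20.8% and 7.09% of all distal sites. The 200 bp window runs past the edges of sites shorter than that, 2 of the 17, and for AP-1 alone a match lay outside its site, which leaves 4 sites with TGANTCA inside them. None of the 5 AP-1 matches lay in a footprint called in 2 or more libraries. The E-box letters CAGGTG were found in 6 (all distal sites, 21%) and CAGCTG in 3 (14.2%), the TCF7/LEF1 letters CTTTGA in 4 (14.7%), the MYB letters AACTGN in 6 (41%), and the NFAT letters GGAAAA in 4 (13.7%). The SP/KLF letters GGGCGG were found in 4 (10.9%), the Ikaros letters TGGGAA in 2 (17.3%), the shorter CTCF letters CCANNAGG in 5 (29.6%), TATAAA in 1 (6.64%), and the CRE letters TGACGTCA in 0 (0.661%). These counts carry no test, since sites of a single window are not replicates.

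Distal sites of the CD3 windows were set against the start sites. The mean log2 relative height of the distal minus that of the start sites was -0.0463, -0.0657, 0.0514 and -0.566 in replicates 1 to 4 (mean -0.157 ± 0.278, SD, n = 4; exact permutation p = 0.375), from 17 distal and 8 start sites in replicates 1 to 3 and from 4 and 1 in replicate 4. With the sites taken anew at each step, needing 2 libraries, it was -0.319 in replicates 1 and 2 alone (exact permutation p = 0.5), -0.324 without replicate 2 and -0.409 without replicate 3 (exact permutation p = 0.25 for each). Over all consensus sites the same difference was -0.854, -0.836, -1.11 and -0.76. The CD3 difference lay above that of all sites in 4 of 4 libraries, by 0.733 ± 0.4 on the log2 scale (SD, n = 4) (exact permutation p = 0.125). With the 5′ ends only as start sites, which makes the Cd3d 3′ site distal, the distal sites were the higher ones by 0.248 (exact permutation p = 0.25). Of the 8 start sites, 1 (Cd3d) had a mean above 0.703, the median of the 17341 promoter consensus sites, and 11 of the 17 distal sites had a mean above 0.263, the median of all distal ones.

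Consensus sites were counted per locus and set against all genes. Within 25 kb of the gene body lay 15 consensus sites for Cd247, more than for 99.4% of protein-coding genes, and 10 each for Cd3d and Cd3e, more than for 95.3%. Cd3g had 8, more than 89.5% of genes, and the median gene had 3. The Cd3d, Cd3e and Cd3g windows overlap and share sites, and a longer gene body has a longer window. With replicates 1 and 2 alone, both needed, the cluster held 16 sites and the Cd247 window 22.

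Replicate 4, the library with the fewest tags, called 2 of the 13 consensus sites of the cluster and 5 of the 15 of the Cd247 window. For each site, the share called in replicate 4 was taken among all sites called in replicates 1 to 3 whose replicate 1 height was within 10% of its own. At the site beyond Cd3g this share was 93.5% of 1737 sites, and the site was not called. At the Cd247, Cd3e and Cd3g 5′ ends it was 63.9%, 51.2% and 48.5%, and none of the 3 was called. At the Cd247 sites 52.4 and 56.2 kb into the gene it was 27.2% and 35.4%, and both were called, as was the Cd3d 3′ site, at a share of 99.4%. The shares describe how often a site of that replicate 1 height was called, and single sites were not tested. Heights in replicates 2 and 3 were not matched. The site beyond Cd3g stood at 1.35 in replicate 1 and 0.811 in replicate 3. The 5′ ends stood at 0.762 and 0.381 (Cd247), 0.64 and 0.653 (Cd3e) and 0.611 and 0.485 (Cd3g).

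**Figure D4:**
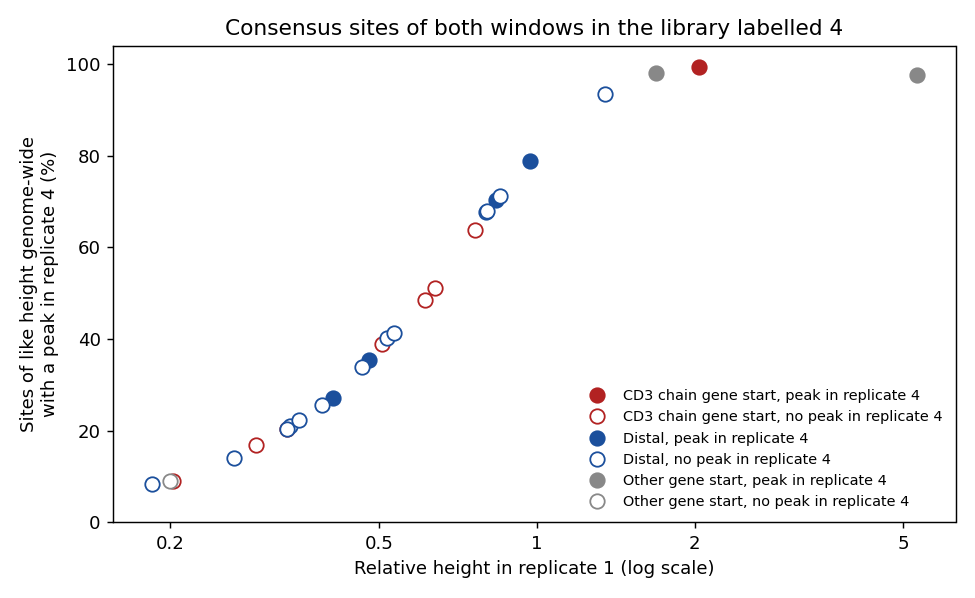
Each consensus site of both windows by its relative height in replicate 1 (x axis, log scale) and the percentage of sites of like height genome-wide that had a peak in replicate 4 (y axis), filled where the site itself had one. The open distal point at 93.5% is the site beyond Cd3g, and the filled distal points at 27.2% and 35.4% are sites in intron 1 of Cd247.

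Footprints were counted in the same windows. The deposited footprint value was 0.01 in every entry, so footprints could be counted but not ranked. The cluster window held 80 merged footprints, of which 20 were called in at least 3 libraries and 4 in all 4, and 3 of those 4 were at the Ube4a start. The Cd247 window held 98, 15 and 1. Of the 25 consensus sites at starts of CD3 chain genes or distal, 15 held a footprint called in at least 3 libraries, against 64.7% of all consensus sites. All 25 held at least 1 footprint of some library, but that share was not taken over all consensus sites and sets these loci apart from none. In the count of footprints called in at least 3 libraries, the 5′ ends differed. The Cd3e 5′ end site (chr9:45009281-45009920) held 3 such footprints, the Cd3g 5′ end 1 (44980485 to 44980513, upstream of the start) and the Cd247 5′ end 0. These sites also differed in width, at 640, 240 and 209 bp in that order, and the counts were not scaled to width. Numbers per library were 42, 48, 37 and 5 in the cluster window and 57, 48, 40 and 1 in the Cd247 window.

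Cut-rate intervals list stretches where the rate of DNase I cuts passed the authors' threshold, apart from the peak lists. The bases in intervals with a deposited value under 0.05 made up 7.18%, 7.38%, 5.31% and 0.8% of the cluster window in replicates 1 to 4, against 0.996%, 0.895%, 0.78% and 0.252% of the genome. In the Cd247 window they made up 6.34%, 6.53%, 4.39% and 0.771%. Both windows lay above the genome in 4 of 4 libraries. At the Cd3d 3′ site all 480 bases were covered in replicates 1 to 3 and 289 in replicate 4, where the lowest value was 0.000148. At the Cd3d 5′ end the intervals covered 260 and 232 bases in replicates 1 and 2 and none in the other two. At the 21 consensus sites of both windows that had no peak in replicate 4, 0 held a cut-rate interval in that library.

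**Figure D5:**
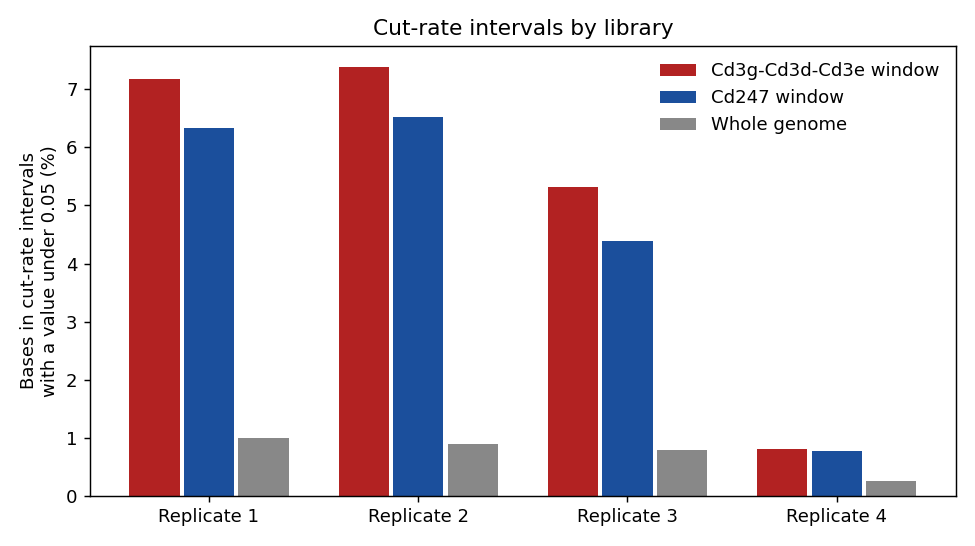
Percentage of bases in cut-rate intervals with a deposited value under 0.05 (y axis, from 0) in the Cd3g, Cd3d and Cd3e window, the Cd247 window and the whole genome, by library. Replicate 4 has the lowest bars in all 3, at 0.8%, 0.771% and 0.252%.

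The signalling genes that act with the CD3 chains were taken as a list of 30: kinases, adaptors, effectors, phosphatases and brakes, and receptors beside the T cell receptor. Of these, 25 had a consensus start site, against 55.1% of all genes, and 28, 29, 26 and 17 had a start peak in replicates 1 to 4, against 58.4%, 58.5%, 56.7% and 46.3% of all genes. The counts with a consensus site were 6 of 7 kinases, 8 of 10 adaptors, 4 of 4 exchange factors and effectors, 4 of 5 phosphatases and brakes, and 3 of 4 receptors. The tallest called in all 4 libraries were the adaptor Nck1 (3.02 ± 0.206, SD, n = 4), the ubiquitin ligase Cblb (2.74 ± 0.573), the kinase Fyn (1.88 ± 0.0744) and the phospholipase Plcg1 (1.86 ± 0.115). Trat1, an adaptor that associates with the receptor complex, had a start peak in no library.

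The kinases next to the CD3 chains differed in replicate 4. Lck stood at 1.11, 0.823, 1.09 and 0.965 in replicates 1 to 4 and Zap70, which binds phosphorylated ITAMs, at 0.911, 0.63, 0.522 and 0. Trac, Trbc1 and Trbc2, the constant genes of the receptor that the CD3 chains serve, had no start peak in replicates 1 to 4. They are annotated as constant gene segments, so the start used was that of the segment. The rest of the receptor loci was not examined, and the missing peaks do not show these loci to be closed. Of 4 ITAM adaptors of other cell types, 1, 0, 3 and 1 had a start peak in replicates 1 to 4. Over all genes the shares were 58.4%, 58.5%, 56.7% and 46.3%. Fcer1g had none, Tyrobp had 0.241 in replicate 3 alone, and Cd79b had 0.156 and 0.347 in replicates 1 and 3. Cd79a, an ITAM chain of the B cell receptor, had 0.347 and 0.684 in replicates 3 and 4 and none in replicates 1 and 2. Among the NK cell markers, Ncr1, Klrb1c, Klre1 and Klra8 had no start peak and Fcgr3 had one in all 4 libraries. Of 7 myeloid markers, 4, 4, 5 and 0 were called in replicates 1 to 4, against 58.4%, 58.5%, 56.7% and 46.3% of all genes. Lyz2, Cd14, Itgam and Spi1 were each called in replicates 1 to 3, and Csf1r in none.

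The genes most like each member were those with the smallest root mean square difference in relative start height over the 4 libraries. For Cd3d these were Ndufs4 (0.0883), and Cdca8 and 9930104L06Rik (0.0975 each, with the same heights in every library). For Cd3e they were Ripk3 (0.0211), Lgr6 (0.0237) and Tmem158 (0.0239), and for Cd3g Acadvl (0.0139), Cfap74 (0.0228) and Rhd (0.0245). For Cd247 they were Zfp52 (0.0306), Nfe2l3 (0.0622) and Klhl3 (0.0649). None of them is another CD3 chain gene, and the lists share no gene. Each list holds only the nearest few of all genes compared. How often such lists of other genes overlap was not counted. The lists therefore do not show the CD3 chain genes to be unlike each other.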

How the data were processed

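DNase-seq of 4 libraries of a single group was used. For each library the authors deposited 2 peak lists, a footprint list and a list of cut-rate intervals, on build mm10 per the labels. Which aligner and peak caller were used is not given in the sources used here. In the peak lists the deposited value, a signal, is the height of the peak scaled to library depth, as read from the values. The deposited footprint and cut-rate values are p-values or q-values, read as false discovery rates, and the files give no counts per site. Depth was read from the step between low heights, with 100% of values within 0.05 of a whole multiple, and single sites carry no counting interval.

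The longer peak lists were merged at 1 bp overlap with Python 3.11.15 and NumPy 2.4.6. Consensus sites needed 3 of 4 libraries. Start sites were those less than 1 kb away from an annotated start of a protein-coding gene in GENCODE M21. Differences between sites or genes were tested over the 4 libraries with an exact two-sided sign-flip permutation, for which the smallest p is 0.125. Sequences came from RefSeq and the GRCm38.p6 reference, whose chromosome ends lay beyond every site. The interval steps and tests were checked on simulated data. Alternatives were the shorter lists, each library left out, replicates 1 and 2 only, an equal number of highest peaks, unscaled heights, other start windows, other consensus and overlap rules, other locus windows, footprints in consensus sites only, and cut-rate limits of 0.01 and 0.001. Non-coding starts and protein-coding transcripts only were added after seeing the data. The members, gene lists and letters searched were chosen with earlier results of these data known. Named genes were the members, the 3 most like each, up to 4 tallest signalling genes called in all 4 libraries, those called in none, defining markers and genes starting in the windows; Lck, Zap70 and the ITAM adaptors were named after their values were seen. The value of 1 defining marker is not reported here.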

Additional observations from a re-analysis of the deposited data

Results flagged for a closer look

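Of 33 sets of 4 library values examined at the CD3 loci, 3 held a library far from the others by Dixon's ratio, and chance flags about 1 set in 20. In each the library labelled 4 was at 0 because it had no peak. The start of Cd3e was at 0 there, against 0.583 to 0.653 in the other libraries. The site 16.9 kb upstream of Cd247 (chr1:165771661-165771880) was at 0, against 0.763 to 0.827, and the site 14.6 kb into Cd247 (chr1:165803181-165803443) at 0, against 0.162 to 0.184. Among sites of like height, 51.2%, 67.9% and 8.31% were called in replicate 4.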

How the results depend on the processing

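Over 15 results and 176 alternative values, 2 turned round, 29 moved by more than 1 SD or, for counts, 1.5 times, and 145 did neither. Tested differences were judged by direction only, and some of the 145 still moved by over 1.5 times. The distal minus start height, reported as -0.157, was -0.418 with the shorter lists, -0.399 with the narrower start window, -0.238 with an equal number of highest peaks, -0.319 in replicates 1 and 2 and -0.409 to -0.203 on leaving out each replicate. Cd3d minus the mean of the others was 5.49 in deposited heights. The Cd247 start height, reported as 0.408, was 0.237 with the shorter lists, 0.251 with the highest peaks and 0.626 in replicates 1 and 2. Cut-rate intervals under 0.001 covered 3.32% of the cluster and 2.81% of the Cd247 window, against 5.17% and 4.51% under 0.05 (means of 4 libraries). Both reversals came from counting the 5′ end only as a start: Cd3d minus the mean of the other members became -0.293, and the distal minus start height became 0.248 on the log2 scale. Under that setting the Cd3d start height was 0.146. With the shorter peak lists the Cd3d height was 1.21, the cluster held 7 consensus sites and 3 distal ones. Heights as deposited, in another unit, averaged 7.79 for Cd3d, 2.4 for Cd3e, 2.4 for Cd3g and 2.11 for Cd247. With the 20647 highest peaks of every library the cluster held 6 sites with 2 distal, and Cd247 held 6 with 5 distal. With all 4 libraries needed they held 2 with 0 distal and 5 with 4 distal, and 16 signalling genes had a start site. With at least 2 needed, Cd247 held 17 distal sites, and with replicates 1 and 2 only, 18. At 50% reciprocal overlap the cluster held 7 sites with 3 distal, and with non-coding starts counted as starts it held 3 distal sites and Cd247 held 7. A locus window of 5 kb left 3 distal sites in the cluster, and one of 100 kb gave 24 sites with 13 distal.

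Leaving out each replicate in turn gave start heights of 1.48 to 1.79 for Cd3d, 0.408 to 0.625 for Cd3e, 0.365 to 0.586 for Cd3g and 0.29 to 0.544 for Cd247. Distal sites of Cd247 numbered 11 to 17, highest without replicate 3 or replicate 4, and its footprints 18 to 32, highest without replicate 4. Replicate 4 had the fewest tags, and a site without a peak there is not shown to be closed. No paired analysis was possible because there was no second group to pair replicate numbers with, and differences between genes or sites were taken within each library. The cause of these changes was not tested.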
